A study of Mus musculus with 3 samples.

Results

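Differences between 3 single-cell libraries of mouse mesenteric lymph node were followed gene by gene and cell class by cell class for 8 genes of the 32285 in the matrices. The genes are Vmn2r96, Def8, Agbl1, Adam19, Cmss1, Lncpint, Colec12 and Camk2b. They had been picked from the ratios of their UMI counts (unique molecular identifiers, 1 per captured transcript) between whole libraries, so the size of those ratios is a description here and supports nothing further. The 4 cell classes are parts of the same libraries, so the direction of a ratio within them partly follows from that choice. Less fixed by it are how alike a ratio's size is over the classes, and how a gene varies among the barcodes of 1 library. A shift alike in all 4 classes was measured for part of the genes. With LysoPS-OVA against citrate buffer, Vmn2r96 and Lncpint were higher and Def8 and Cmss1 lower in every class, whereas Adam19 passed 1.5-fold in T cells alone, Agbl1 in B cells alone, and Colec12 in CD4 T cells alone.

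The mesenteric lymph node drains the intestine and is a place where immune tolerance to food antigens is set up, and the series asks which of its cells carry features of tolerance. Ovalbumin (OVA), the main protein of egg white, served as the food antigen. The 3 groups are LysoPS-OVA (1 µg ovalbumin with lyso-phosphatidylserine nanoparticles), free OVA (1 µg ovalbumin without the carrier) and 5 mM citrate buffer, which the sample title calls an untreated control. All animals were given their material by mouth for 4 weeks, and the nodes of 6 animals were pooled into 1 library per group, on which a droplet 3′ assay was run after enzymatic digestion and removal of dead cells. Strain, age and sex are not given in the labels. With 1 library per group there is no replicate and no test of a difference. Every interval below is a 95% interval that covers counting error only. It takes UMIs as independent and leaves out the spread between barcodes, so it is too narrow where UMIs gather in few barcodes. Treatment cannot be told apart from the animals pooled or from library preparation.

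The libraries held 84089686 UMIs over 20873 barcodes with LysoPS-OVA, 81559237 over 28660 with free OVA and 96616683 over 28927 with citrate buffer, and 16025, 21949 and 21871 barcodes were kept after filtering. Levels are given in CPM, the usual scaling of a gene's UMIs to the total UMIs of the same barcodes. Barcodes were gated by marker transcripts into B cells (5383, 5838 and 6075), CD4 T cells (2181, 1182 and 1795), CD8 T cells (892, 529 and 1328) and antigen-presenting myeloid cells (1222, 3096 and 1790), the last mostly migratory dendritic cells. The labels' cell type, intestinal, was not borne out: 1, 4 and 3 barcodes passed the gate for intestinal epithelium. Gates were not pure, since 6 B cell markers summed to 5329, 4514 and 4339 CPM in B cells and still to 86.6, 73.6 and 130.4 CPM in CD4 T cells. The libraries also differ in kind of barcode. Barcodes with under 0.5% of their UMIs from the nuclear RNA Malat1 made up 21.6%, 51.6% and 27.8% of those kept, and barcodes with under 10% from ribosomal protein genes a further 10.7%, 8.45% and 22.1%. Of barcodes with transcripts of 1 sex alone, 86.3%, 79.3% and 60.1% carried Y-linked transcripts rather than Xist. Between 1.24% and 1.61% of a library's barcode sequences also occurred in another library. The part of these differences in the values below was not tested, except where a value within 1 kind of barcode is given.

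The 8 genes have no pathway in common. Vmn2r96 encodes a vomeronasal type 2 receptor, of the family of G-protein-coupled receptors with which rodents sense pheromones in the vomeronasal organ. Lncpint is a long noncoding RNA, found in the nucleus and known as a target of the tumour suppressor p53. Def8 encodes a protein of the family of RUN and Rubicon domain proteins that act with the GTPase Rab7 on lysosomes. Cmss1 encodes a nuclear RNA-binding protein whose yeast relative is linked to the small ribosomal subunit. Camk2b is the beta subunit of calcium/calmodulin-dependent kinase II, best known from neurons. Colec12 is a scavenger receptor of the collectin group, known mainly from endothelium and stroma. Adam19 is a membrane-bound metalloprotease that sheds the outer parts of other surface proteins. Agbl1 is a cytosolic carboxypeptidase that trims glutamate residues from protein ends.

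The sequences before the start sites of Vmn2r96 and of the 3 genes that were lower with LysoPS-OVA than with free OVA in every class (Def8, Cmss1 and Camk2b) are shown for comparison. Each is the 250 bases before a RefSeq transcription start (GRCm38.p6), on the gene's own strand, with matches to the TATA box (TATAAA), the CCAAT box or the GC box (GGGCGG) on either strand in capitals (a match on the other strand is printed as its reverse complement). The Vmn2r96 window is chr17:18581477-18581726 on the plus strand, inside the GENCODE gene, and its last 10 bases are exonic there. The Def8 window is chr8:123442706-123442955, plus strand, before the first of 2 RefSeq starts and in a GENCODE intron. The Cmss1 window is chr16:57606868-57607117, minus strand, just beyond the GENCODE gene. The Camk2b window is chr11:6065749-6065998, minus strand, in a GENCODE intron.
Vmn2r96: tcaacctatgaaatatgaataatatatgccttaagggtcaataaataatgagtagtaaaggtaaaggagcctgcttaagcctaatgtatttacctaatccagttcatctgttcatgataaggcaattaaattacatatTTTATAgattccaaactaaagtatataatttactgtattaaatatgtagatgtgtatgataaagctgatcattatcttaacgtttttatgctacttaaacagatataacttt
Def8: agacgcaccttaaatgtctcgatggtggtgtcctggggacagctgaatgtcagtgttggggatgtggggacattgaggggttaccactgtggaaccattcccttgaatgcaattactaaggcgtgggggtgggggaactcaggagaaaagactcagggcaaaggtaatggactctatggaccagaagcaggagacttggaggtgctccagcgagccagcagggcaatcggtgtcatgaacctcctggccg
Cmss1: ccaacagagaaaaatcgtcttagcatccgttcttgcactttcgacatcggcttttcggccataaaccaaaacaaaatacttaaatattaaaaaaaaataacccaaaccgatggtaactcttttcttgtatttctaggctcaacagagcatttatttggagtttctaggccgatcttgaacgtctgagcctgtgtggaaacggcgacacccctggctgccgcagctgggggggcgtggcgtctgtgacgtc
Camk2b: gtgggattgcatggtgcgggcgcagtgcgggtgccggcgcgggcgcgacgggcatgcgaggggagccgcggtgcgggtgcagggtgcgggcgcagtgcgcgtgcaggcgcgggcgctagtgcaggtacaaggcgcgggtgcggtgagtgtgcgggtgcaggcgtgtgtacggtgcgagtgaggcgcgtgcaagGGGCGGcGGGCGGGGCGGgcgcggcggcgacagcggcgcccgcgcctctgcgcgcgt
The windows have little in common. Camk2b's holds 78.4% G and C and 44 CG pairs, where the median over 32851 RefSeq windows of that length is 52.4% and 6 pairs, and it has 3 matches to GGGCGG, of which 2 overlap by 1 base, a motif found in 32.7% of all windows. Vmn2r96's holds 26.8% G and C, 1 CG pair and 1 match to TATAAA on the other strand, a motif found in 12.4% of windows. None of the 3 motifs occurs in the windows of Def8 (54.8% G and C) and Cmss1 (46%), and CCAAT, found in 33.8% of windows, occurs in none of the 4.

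The 8 genes lie apart in the genome, here in GENCODE release 21 (GRCm38). On the plus strand are Vmn2r96 (chromosome 17, 18573151 to 18616003), Def8 (chromosome 8, 123423527 to 123463270), Agbl1 (chromosome 7, 76229887 to 77124698), Adam19 (chromosome 11, 46055992 to 46147343) and Colec12 (chromosome 18, 9707595 to 9882644). On the minus strand are Cmss1 (chromosome 16, 57302000 to 57606864), Lncpint (chromosome 6, 31082565 to 31220488) and Camk2b (chromosome 11, 5969644 to 6066362). Lncpint is annotated as a long intergenic noncoding RNA and the other 7 as protein-coding. Their spans reach from 39.7 kb for Def8 to 895 kb for Agbl1, while the exons of all transcripts of a gene together cover 1997 bases for Cmss1 up to 9125 bases for Camk2b. Most of each span is intron. The sources used here do not say whether intronic reads were counted.

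A gene was taken as measured in a class where the higher library had at least 30 UMIs and 10 CPM, and as differing where the ratio of CPM + 1 passed 1.5-fold in either direction. With LysoPS-OVA against citrate buffer, 4 of the 6 genes measured in all 4 classes passed in the same direction in each: Vmn2r96 and Lncpint higher, Def8 and Cmss1 lower. Over all genes measured in the 4 classes that share was 0.641% (41 of 6401). With free OVA against citrate buffer, 1 of 7 did, Vmn2r96, beside 0.659% of all genes (43 of 6524). With LysoPS-OVA against free OVA, 4 of 7 did, Colec12 higher and Def8, Cmss1 and Camk2b lower, beside 0.198% (11 of 5547). Since the genes were picked on these libraries, nothing is read from these shares. Both comparisons with citrate buffer use the same citrate library. Class by class, the number of the 8 genes past 1.5-fold in either direction, of those measured, stood beside the share of all measured genes given in brackets as the background. Between LysoPS-OVA and citrate buffer it was 6 of 8 in B cells (background 6.62%), 7 of 8 in CD4 T cells (background 5.78%), 5 of 6 in CD8 T cells (background 6.79%) and 5 of 7 in myeloid cells (background 16.2%). Between free OVA and citrate buffer it was 3 of 8 in B cells (background 5.35%), 3 of 8 in CD4 T cells (background 5.36%), 5 of 7 in CD8 T cells (background 7.46%) and 2 of 7 in myeloid cells (background 26.6%). Between LysoPS-OVA and free OVA it was 5 of 8 in B cells (background 1.21%), 4 of 8 in CD4 T cells (background 1.44%), 5 of 7 in CD8 T cells (background 3.33%) and 5 of 7 in myeloid cells (background 14.5%). The background share over all measured genes was largest in myeloid cells in every comparison. The median log2 ratio of all measured genes between LysoPS-OVA and citrate buffer was -0.03 in B, -0.13 in CD4 T, -0.12 in CD8 T and -0.16 in myeloid cells. Between free OVA and citrate buffer it was -0.08 in B, -0.10 in CD4 T, -0.12 in CD8 T and -0.33 in myeloid cells.

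**Figure D1:**
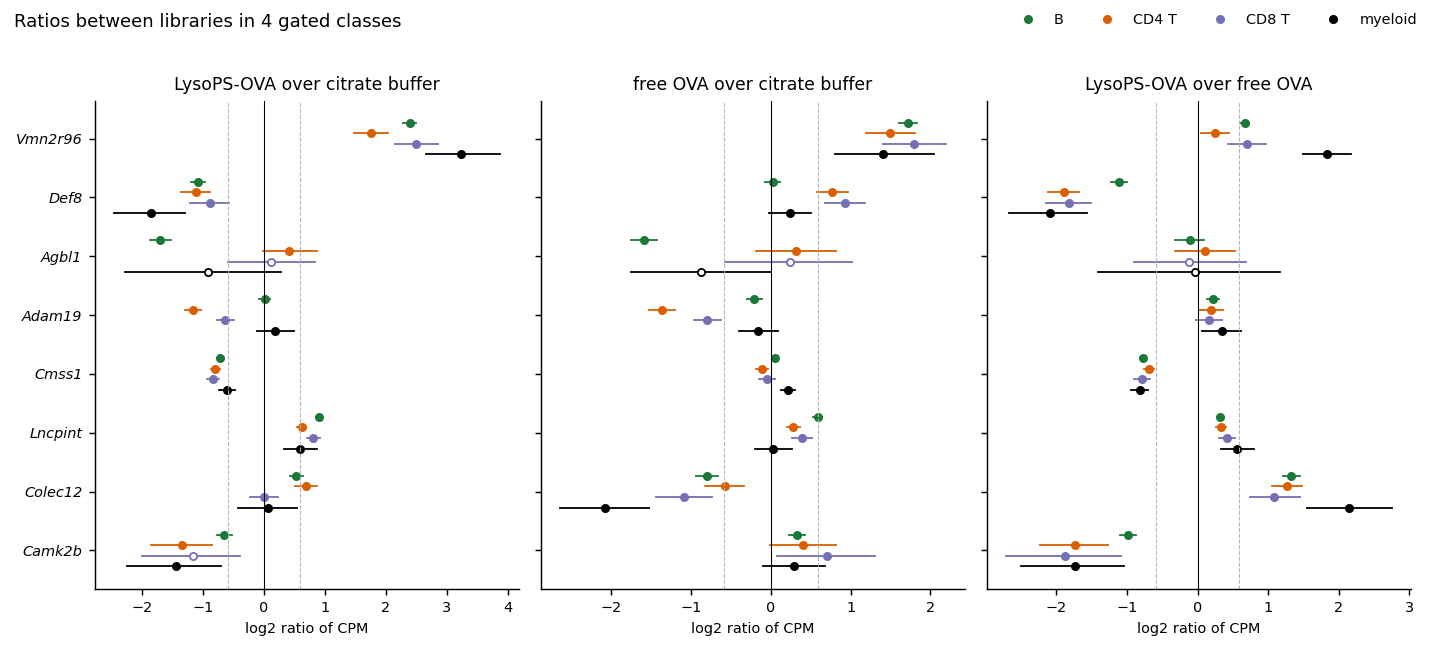
Ratios of CPM between libraries on a log2 axis for the 8 genes in 4 gated classes, with bars for 95% counting intervals. Open points are classes where the gene was too low to count as measured, and dashed lines mark 1.5-fold. In the left panel the 4 points of Vmn2r96 and Lncpint lie right of 0 and those of Def8, Cmss1 and Camk2b left of it, while those of Adam19 and Agbl1 split by class.

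Vmn2r96 was higher with LysoPS-OVA in every class, and next highest with free OVA. In B cells it stood at 220.1 (214 to 226) CPM with LysoPS-OVA, 138 (134 to 143) with free OVA and 42.0 (39.2 to 45.0) with citrate buffer. In CD4 T cells it was at 54.3 (50.2 to 58.7), 45.7 (40.9 to 51.0) and 16.2 (13.4 to 19.3) CPM, and in CD8 T cells at 79.7 (72.4 to 87.6), 49.2 (41.9 to 57.3) and 14.2 (11.3 to 17.6) CPM. In myeloid cells the 3 levels were 78.4 (67.0 to 91.3), 22.0 (18.5 to 26.0) and 8.33 (5.54 to 12.0) CPM. The order of the libraries was thus the same in all 4 classes, and in CD4 T cells alone the intervals of LysoPS-OVA and free OVA overlapped. LysoPS-OVA exceeded citrate buffer by a factor of 5.24 (4.87 to 5.65) in B cells, 3.36 (2.77 to 4.11) in CD4 T cells, 5.63 (4.44 to 7.21) in CD8 T cells and 9.42 (6.28 to 14.6) in myeloid cells. Its size was less alike than its direction: it spanned 1.40 log2 units (on CPM + 1) from CD4 T to myeloid cells, where the median gene spans 0.39. Free OVA against citrate buffer was steadier, between 2.64 (1.75 to 4.12) in myeloid and 3.47 (2.65 to 4.58) in CD8 T cells. Within each library B cells had the most Vmn2r96. With LysoPS-OVA its 5180 UMIs in B cells came from 1634 of 5383 barcodes (30.4%). With LysoPS-OVA the intervals of CD8 T and myeloid cells overlapped, with free OVA those of CD4 and CD8 T cells, and with citrate buffer those of CD8 T cells with both CD4 T and myeloid cells.

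Of 124 Vmn2r genes in the matrices 5 besides Vmn2r96 reached 30 UMIs in a library, the highest at 2.37, 1.42 and 2.14 CPM (Vmn2r7, with LysoPS-OVA, free OVA and citrate buffer). Related genes are counted here and below on the plain ratio of CPM over all kept barcodes, where 5.03% of 15506 genes were past 1.5-fold higher and 11.1% lower with LysoPS-OVA than with citrate buffer, and the median log2 ratio was -0.08. Of the 5 receptors 1 was past it, Vmn2r26, at 0.535 against 0.338 CPM, a ratio of 1.58 (0.923 to 2.77), and the list's median log2 ratio was 0.15. Vmn2r57 and Vmn2r112 were at 0.788 and 1.20 times citrate buffer. The nearest genes on either side of Vmn2r96 that were measured start over 1000 kb away and differed little: Lnpep, an aminopeptidase, was at 213, 210.3 and 234 CPM and Ppp2r1a, a phosphatase scaffold, at 43.0, 42.5 and 41.9 CPM.

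Lncpint was higher with LysoPS-OVA in all 4 classes, by a factor that differed somewhat between them. Its levels in B cells were 369.6 (362 to 377), 296 (289 to 303) and 197 (191 to 203) CPM with LysoPS-OVA, free OVA and citrate buffer. For CD4 T cells they were 417 (406 to 429), 331 (318 to 345) and 272 (261 to 284) CPM, and for CD8 T cells 349 (333 to 365), 262 (245 to 279.8) and 199.5 (188 to 211) CPM. Myeloid cells held far less, 109 (95.1 to 124), 73.5 (66.9 to 80.6) and 72.0 (63.2 to 81.7) CPM, and there free OVA and citrate buffer did not differ beyond counting error. Relative to citrate buffer, LysoPS-OVA lay between 1.51 (1.25 to 1.82) in myeloid and 1.88 (1.81 to 1.95) in B cells, a spread of 0.32 log2 units. In CD4 T cells the ratio was 1.53 (1.46 to 1.61), an interval below that of B cells. The ratio of free OVA to citrate buffer was 1.5 (1.44 to 1.56) in B, 1.22 (1.15 to 1.29) in CD4 T, 1.31 (1.20 to 1.43) in CD8 T and 1.02 (0.871 to 1.20) in myeloid cells. In myeloid cells LysoPS-OVA over citrate buffer sits at the 1.5-fold line, and with barcodes low in ribosomal transcripts alone it was 1.03. Among type 1 conventional dendritic cells (cDC1), a part of that class, the ratio was 0.599 (0.282 to 1.19), from 12 and 33 UMIs.

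None of 12 other measured long noncoding RNAs passed 1.5-fold in either direction between LysoPS-OVA and citrate buffer over all kept barcodes, and their median log2 ratio was 0.03. Those farthest from 1 were Dleu2 at 0.743, Ftx at 1.31 and Snhg12 at 1.24 times citrate buffer. Of 9 measured p53 targets, Plk2 was past 1.5-fold higher (1.60) and Cdkn1a, the cell cycle inhibitor p21, and Phlda3 were lower (0.525 and 0.596), with 3.43 against 6.54 CPM of Cdkn1a. The median log2 ratio of the 9 was -0.03. Likeness of pattern was measured over 8 ratios (both OVA libraries against citrate buffer in 4 classes) among 6110 genes. Closest to Lncpint were Crim1, Gpr183, a receptor for oxysterols that guides lymphocytes, and P4ha1, at root mean square distances of 0.11, 0.15 and 0.18 log2 units.

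Cmss1 was lower with LysoPS-OVA than with either other library, by a similar factor in each of the gated classes. B cells had 289.8 (283 to 297), 497 (488 to 506) and 479 (469 to 489) CPM with LysoPS-OVA, free OVA and citrate buffer. CD4 T cells had 260.1 (251 to 269), 419.7 (405 to 435) and 453 (438 to 468) CPM, and CD8 T cells 240.1 (227 to 254), 415 (393 to 437) and 429 (412 to 446) CPM. Myeloid cells had 306 (283 to 330.3), 540.2 (522 to 559) and 467 (444 to 490.3) CPM. LysoPS-OVA stood well apart in each class, with no overlap of intervals. Free OVA and citrate buffer lay closer, though their intervals did not overlap in CD4 T and myeloid cells. Outside the classes, ungated barcodes had 385 (360 to 411), 826 (807 to 846) and 537 (517 to 558) CPM in the same order of libraries. Barcodes removed for mitochondrial UMIs had 416, 1004 and 576 CPM. LysoPS-OVA to citrate buffer gave 0.605 (0.586 to 0.624) in B, 0.574 (0.547 to 0.603) in CD4 T, 0.560 (0.524 to 0.60) in CD8 T and 0.655 (0.597 to 0.719) in myeloid cells. LysoPS-OVA to free OVA spanned 0.13 log2 units over the classes, from 0.566 (0.520 to 0.616) to 0.620 (0.589 to 0.652). The median gene spans 0.35, but that median includes genes with far fewer UMIs than Cmss1. Barcodes that the filters removed also had less with LysoPS-OVA, with ratios to citrate buffer of 0.722 (0.681 to 0.767) among those removed for mitochondrial UMIs and 0.592 (0.566 to 0.619) among called doublets.

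Genes around Cmss1 stayed within 1.5-fold. Filip1l, which lies within the Cmss1 gene on the other strand, was at 242, 273 and 204 CPM, so it was 1.19 times citrate buffer with LysoPS-OVA, the opposite direction. The sources used here do not state whether counting used strand, so reads of these genes may not be told apart. Tbc1d23 and Nit2, before Cmss1, were at 1.02 and 0.778 times citrate buffer, and St3gal6, after it, at 1.03. None of 9 other genes of small ribosomal subunit production passed 1.5-fold (median log2 ratio -0.13), the farthest being Tsr1, Nop14 and Wdr43 at 0.732, 0.830 and 0.849 times citrate buffer. Closest in pattern were Ring1, a Polycomb ubiquitin ligase, Srsf9, a splicing factor, and Zfp106, at 0.20, 0.23 and 0.24 log2 units.

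Def8 was lowest with LysoPS-OVA in each class, and in T cells highest with free OVA. B cells showed 40.7 (38.1 to 43.3) CPM with LysoPS-OVA, 87.7 (84.0 to 91.6) with free OVA and 86.3 (82.3 to 90.6) with citrate buffer. The levels in CD4 T cells were 21.7 (19.1 to 24.6), 80.7 (74.3 to 87.6) and 47.3 (42.5 to 52.4) CPM, and in CD8 T cells 22.8 (19.0 to 27.2), 80.5 (71.2 to 90.8) and 42.3 (37.2 to 47.9) CPM. Those in myeloid cells were 14.7 (9.95 to 20.8), 62.5 (56.4 to 69.0) and 53 (45.5 to 61.3) CPM. Def8 with LysoPS-OVA over citrate buffer was 0.471 (0.435 to 0.510) in B, 0.459 (0.390 to 0.541) in CD4 T and 0.539 (0.431 to 0.672) in CD8 T cells and smaller, 0.277 (0.182 to 0.407), in myeloid cells. The ratio of free OVA to citrate buffer differed more by class. It was 1.71 (1.49 to 1.95) in CD4 T and 1.90 (1.59 to 2.27) in CD8 T cells, past 1.5-fold, against 1.02 (0.952 to 1.08) in B and 1.18 (0.985 to 1.42) in myeloid cells. In the cDC1 part of the myeloid class that ratio was 2.46 (1.30 to 5.05), from 55 and 12 UMIs. Whether these class ratios differ was not tested, and in barcodes low in ribosomal transcripts the CD8 T ratio was 0.922.

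Of 5 genes related to Def8 by domain or function, Rubcn, Rubcnl, Plekhm1, Plekhm3 and Rab7, none passed 1.5-fold against citrate buffer in either OVA library, and their median log2 ratio with LysoPS-OVA was 0.14. Plekhm3 was farthest, at 121, 113 and 97.7 CPM with LysoPS-OVA, free OVA and citrate buffer. The nearest measured neighbours, Tcf25 before and Afg3l1 after Def8, were at 0.832 and 0.884 times citrate buffer with LysoPS-OVA. The gene most like Def8 over the 8 class ratios was Cmss1, at 0.64 log2 units, and then Edrf1 and Zfp646. Cmss1 was picked from the same library ratios as Def8, so its nearness partly follows from that choice.

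Camk2b was lower with LysoPS-OVA in every class where it was measured. In B cells, which hold most of it, it stood at 44.1 (41.4 to 46.8), 87.1 (83.3 to 91.0) and 69.1 (65.5 to 72.9) CPM with LysoPS-OVA, free OVA and citrate buffer. Myeloid cells held 8.98 (5.41 to 14.0), 29.8 (25.6 to 34.4) and 24.4 (19.4 to 30.3) CPM, and CD4 T cells 4.67 (3.52 to 6.07), 15.6 (12.8 to 18.8) and 11.9 (9.54 to 14.6) CPM. In CD8 T cells it was at 3.71 (2.27 to 5.73), 13.6 (9.90 to 18.2) and 8.36 (6.19 to 11.1) CPM, too low with LysoPS-OVA and citrate buffer for these to be compared. LysoPS-OVA was the lowest library in all 4 classes, though for CD8 T cells its interval stops just short of that of citrate buffer. Its ratio to free OVA was 0.506 (0.469 to 0.545) in B, 0.299 (0.212 to 0.417) in CD4 T, 0.273 (0.153 to 0.472) in CD8 T and 0.301 (0.177 to 0.484) in myeloid cells, and its ratio to citrate buffer 0.637 (0.587 to 0.691) in B, 0.394 (0.276 to 0.556) in CD4 T and 0.368 (0.211 to 0.612) in myeloid cells. Free OVA exceeded citrate buffer by less, 1.26 (1.18 to 1.35) in B cells. That ratio passed 1.5-fold in CD8 T cells alone, at 1.56 on CPM + 1, from 45 UMIs with free OVA and 49 with citrate buffer. Of 17 other genes of calcium and calmodulin signalling, 1 passed 1.5-fold between LysoPS-OVA and citrate buffer: Camk2a, the alpha subunit of the same kinase, lower at 0.825 against 1.87 CPM, and the list's median log2 ratio was -0.20. Camk4 and Camkk1, kinases of the same cascade, were at 0.686 and 0.685 times citrate buffer. Def8 and Cmss1 were the genes closest to Camk2b in pattern, at 0.30 and 0.43 log2 units, followed by Edrf1. Of the 8 values of Camk2b 7 were measured. Def8 and Cmss1 were picked from the same library ratios as Camk2b, so their nearness partly follows from that choice.

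**Figure D2:**
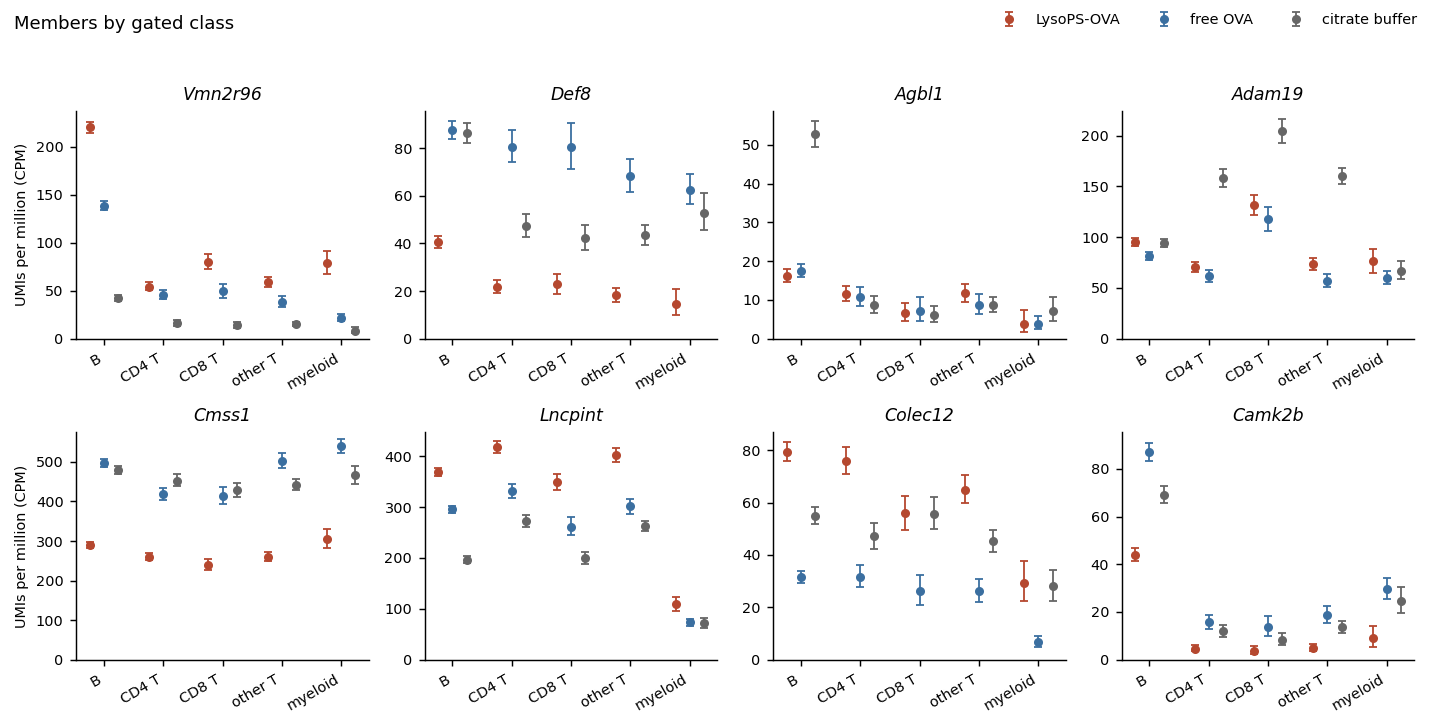
CPM of each gene in 5 gated classes, from left to right in each class with LysoPS-OVA, free OVA and citrate buffer; bars are 95% Poisson intervals, other T cells are those without a CD4 or CD8 call, and each panel has its own axis from 0. The plot shows Cmss1 lowest with LysoPS-OVA in all 5 classes, Agbl1 high in citrate buffer B cells alone and Adam19 high in the citrate buffer T cell classes.

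Colec12 was lowest with free OVA in all 4 classes. B cells stood at 79.3 (75.8 to 83.0), 31.6 (29.4 to 34.0) and 55.1 (51.8 to 58.4) CPM with LysoPS-OVA, free OVA and citrate buffer. CD4 T cells stood at 75.9 (71.0 to 81.1), 31.6 (27.6 to 36.1) and 47.2 (42.4 to 52.3) CPM. The values were 55.8 (49.7 to 62.5), 26.2 (21 to 32.4) and 55.8 (49.9 to 62.2) CPM in CD8 T cells and 29.3 (22.5 to 37.6), 6.64 (4.76 to 9.0) and 28.0 (22.6 to 34.2) CPM in myeloid cells. LysoPS-OVA exceeded citrate buffer in B and CD4 T cells, at 1.44 (1.34 to 1.55) and 1.61 (1.42 to 1.82), and could not be told from it in CD8 T and myeloid cells, at 1.0 (0.852 to 1.17) and 1.05 (0.748 to 1.46). The excess was in barcodes with Y-linked transcripts and no Xist, at 1.70 (1.51 to 1.92) in B and 1.96 (1.74 to 2.22) in T cells, whereas barcodes with Xist and no Y-linked transcripts gave 1.09 (0.902 to 1.32) in B and 0.765 (0.634 to 0.920) in T cells. Free OVA against citrate buffer was 0.574 (0.522 to 0.631) in B, 0.671 (0.566 to 0.795) in CD4 T, 0.470 (0.367 to 0.597) in CD8 T and 0.237 (0.160 to 0.346) in myeloid cells. Of these the CD4 T value, on CPM + 1, was just short of 1.5-fold, and in barcodes low in ribosomal transcripts the CD8 T ratio was 1.21. Among 8 other measured scavenger receptors and collectins, 5 were past 1.5-fold lower with LysoPS-OVA than with citrate buffer, and their median log2 ratio was -0.95. Farthest were Mrc1 (the mannose receptor), Marco and Stab1, all receptors of macrophages or endothelium, at ratios of 0.0734 (0.0146 to 0.230) from 3 against 42 UMIs, 0.292 (0.220 to 0.384) from 68 against 239 UMIs and 0.372 (0.200 to 0.659) from 17 against 47 UMIs. Macrophage-gated barcodes numbered 53 with LysoPS-OVA and 111 with citrate buffer, and in sums over all barcodes fewer cells and less RNA per cell cannot be told apart. The genes nearest to Colec12 in pattern, Tmtc2, Sesn1 and Srm, lay 0.48, 0.52 and 0.53 log2 units away.

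Adam19 was past 1.5-fold lower in both OVA libraries than with citrate buffer in CD4 and CD8 T cells, and stayed within 1.5-fold in B and myeloid cells. In CD4 T cells it stood at 70.3 (65.6 to 75.3), 61.5 (55.8 to 67.5) and 158 (149.6 to 168) CPM with LysoPS-OVA, free OVA and citrate buffer, and in CD8 T cells at 131 (122 to 141), 118 (106 to 129.9) and 204 (193 to 216) CPM. B cells had 94.9 (91.0 to 98.9), 81.5 (77.9 to 85.2) and 94.2 (90.0 to 98.6) CPM, and myeloid cells 76.1 (64.8 to 88.8), 60.1 (54.1 to 66.5) and 67.0 (58.5 to 76.3) CPM. Among the gated classes, citrate buffer stood above both OVA libraries, beyond the intervals, in T cells alone. It also did so outside these classes. Ungated barcodes had 59.8, 41.3 and 129 CPM, and barcodes with markers of more than 1 lineage 93.8, 81.1 and 126 CPM. LysoPS-OVA to citrate buffer was 0.444 (0.406 to 0.485) and 0.643 (0.585 to 0.706) in CD4 and CD8 T cells, and free OVA to citrate buffer 0.388 (0.347 to 0.433) and 0.576 (0.513 to 0.647). The same ratios in B cells were 1.01 (0.946 to 1.07) and 0.865 (0.811 to 0.923), and in myeloid cells 1.14 (0.922 to 1.40) and 0.897 (0.758 to 1.06). The cDC1 part of the myeloid class stood at 59.0 (34.4 to 94.5) CPM with LysoPS-OVA, from 17 UMIs. There free OVA had 53.2 (39.1 to 70.7) and citrate buffer 109.6 (81.8 to 143.7) CPM, from 47 and 52 UMIs. Between LysoPS-OVA and free OVA no class passed 1.5-fold. Of 9 other measured ADAM genes, 3 were past 1.5-fold lower with LysoPS-OVA than with citrate buffer, Adamdec1, Adam12 and Adam15, at ratios of 0.487 (0.261 to 0.874), 0.526 (0.468 to 0.590) and 0.610 (0.468 to 0.791), none was higher, and the median log2 ratio was -0.32. Closest in pattern were Jaml, an adhesion molecule of leukocytes, the protease Napsa and Pkig, at 0.22, 0.23 and 0.24 log2 units.

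Among the 4 classes, Agbl1 was past 1.5-fold lower in both OVA libraries than with citrate buffer in B cells, and in no other class where it was measured. B cells had 16.2 (14.6 to 17.9), 17.5 (15.8 to 19.3) and 52.7 (49.6 to 56.1) CPM with LysoPS-OVA, free OVA and citrate buffer, with ratios to citrate buffer of 0.308 (0.273 to 0.346) for LysoPS-OVA and 0.332 (0.295 to 0.373) for free OVA. CD4 T cells had 11.5 (9.60 to 13.6), 10.7 (8.42 to 13.4) and 8.60 (6.65 to 10.9) CPM, whose intervals overlap. In B cells with citrate buffer the 1030 UMIs of Agbl1 came from 389 of 6075 barcodes (6.40%). Levels in CD8 T and myeloid cells were under 10 CPM in every library. Outside the classes Agbl1 was lower in both OVA libraries as well. Ratios to citrate buffer for LysoPS-OVA and free OVA were 0.595 (0.349 to 0.974) and 0.537 (0.382 to 0.752) in ungated barcodes. They were 0.376 (0.320 to 0.440) and 0.397 (0.339 to 0.463) in barcodes with markers of more than 1 lineage. None of 4 other measured cytosolic carboxypeptidases passed 1.5-fold between LysoPS-OVA and citrate buffer (median log2 ratio -0.0033). Agbl4 passed it between free OVA and citrate buffer, at 13.8 against 8.54 CPM, as did 6.42% of all 15506 genes in that direction, while Agbl5 and Agtpbp1 were at 0.988 and 0.993 times citrate buffer with LysoPS-OVA. Ntrk3, the next measured gene after Agbl1, was at 45.8, 29.8 and 47.0 CPM, and it had the lowest ratio of free OVA to citrate buffer, 0.634, of the measured neighbours of the 8 genes. With LysoPS-OVA against citrate buffer those neighbours lay between 0.778 (Nit2, by Cmss1) and 1.26 (Gm12158, by Adam19). Over the 8 class ratios Klk8, a secreted protease, Slfn1 and Spn (CD43) lay nearest to Agbl1, of whose 8 values 4 were measured, at 0.25, 0.32 and 0.33 log2 units.

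How alike a ratio was over the classes varied widely among the 8 genes. The range over the classes of the log2 ratio between LysoPS-OVA and citrate buffer was 0.22 for Cmss1 and 0.32 for Lncpint, below the median of 0.39. It was 0.68 for Colec12, 0.71 for Camk2b and 0.92 for Def8, and 1.34, 1.40 and 2.02 for Adam19, Vmn2r96 and Agbl1, with classes of low counts included for Camk2b and Agbl1. Among the 8, Vmn2r96 paired the largest mean ratio with a wide range, so that its direction but not its size was alike. The genes nearest to it in pattern lay far off: Dnajb1 and Hsph1, heat shock proteins, and Cpne4, at 1.17, 1.27 and 1.30 log2 units.

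**Figure D3:**
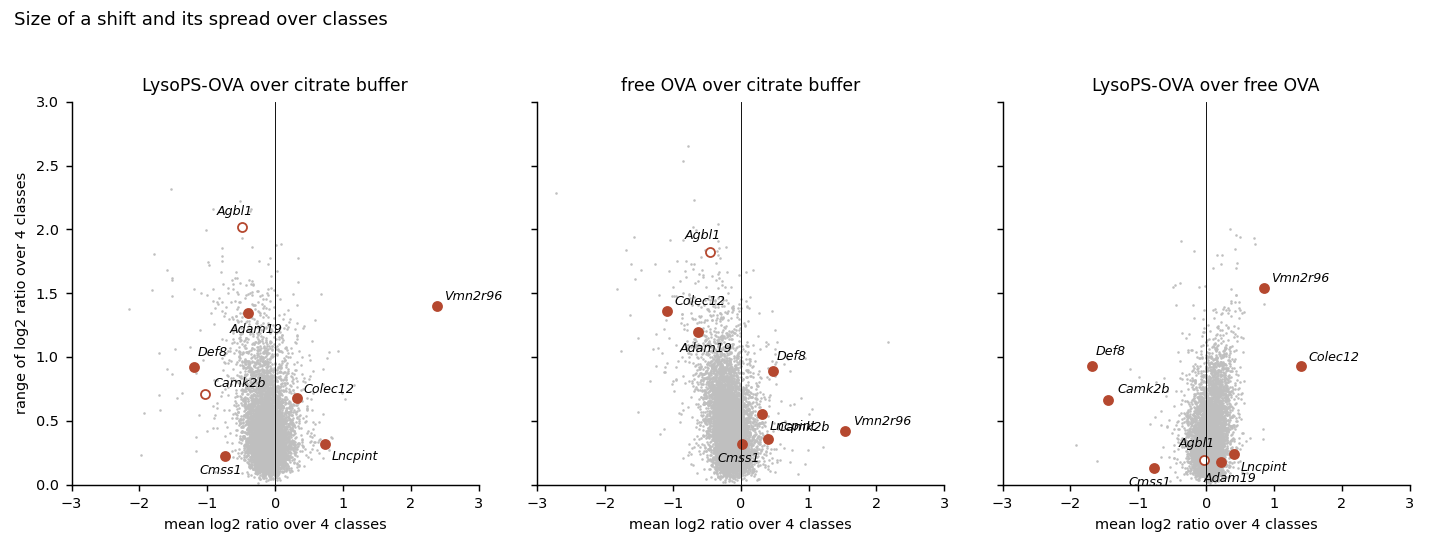
Mean and range over 4 classes of the log2 ratio of CPM + 1 between libraries, with every gene measured in the 4 classes in grey (5, 3 and 1 genes lie outside the frame from left to right) and the 8 genes in red, open where a class was too low. Cmss1 and Lncpint lie near the bottom of the left panel, off 0 with a range of 0.22 and 0.32, and Vmn2r96 far to the right with a range of 1.40.

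Within a library, several of these genes differed between barcodes with Y-linked transcripts and barcodes with Xist. Colec12 with free OVA was at 39.1 CPM in barcodes with Y-linked transcripts alone and 4.82 CPM in those with Xist alone, a ratio of 8.11 (5.96 to 11.3). With LysoPS-OVA the levels were 75.5 and 69.2 CPM, a ratio of 1.09 (0.989 to 1.21), with 1.05 (0.891 to 1.24) in B and 1.36 (1.15 to 1.61) in T cells. With citrate buffer the order was the reverse, 40.9 and 76.2 CPM, a ratio of 0.537 (0.494 to 0.583). The free OVA gap was present in B and T cells, at 5.79 (3.90 to 8.94) and 12.9 (6.21 to 32.4). In barcodes with Y-linked transcripts alone, the ratio of free OVA to citrate buffer was 0.956 (0.880 to 1.04), and in those with Xist alone 0.0633 (0.0454 to 0.0861). LysoPS-OVA against citrate buffer gave 1.85 (1.72 to 1.98) in the Y-marked and 0.908 (0.814 to 1.01) in the Xist-marked barcodes.

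Vmn2r96 and Camk2b also differed by this mark. Vmn2r96 was at 154 CPM in barcodes with Y-linked transcripts and 99.1 CPM in those with Xist with LysoPS-OVA, 113 and 59.6 CPM with free OVA, and 21.3 and 35.8 CPM with citrate buffer. Both OVA libraries thus had more of it in Y-marked barcodes and the citrate buffer library less. LysoPS-OVA remained above citrate buffer in both kinds, 7.23 (6.62 to 7.91) in Y-marked and 2.77 (2.47 to 3.09) in Xist-marked barcodes. The ratio of free OVA to citrate buffer was 5.30 (4.84 to 5.82) in Y-marked and 1.66 (1.48 to 1.87) in Xist-marked barcodes. In Xist-marked B cells it was 1.53 (1.30 to 1.79). Xist-marked T cells gave 0.783 (0.528 to 1.14), an interval that includes 1, from 37 UMIs with free OVA. The CD4 T cells among them, for which no interval was computed, gave 0.613. Camk2b was at 21.4 and 40.3 CPM in Y-marked and Xist-marked barcodes with LysoPS-OVA, 52.4 and 80.3 CPM with free OVA and 38.8 and 38.0 CPM with citrate buffer. Its deficit with LysoPS-OVA against citrate buffer was present in Y-marked barcodes, 0.551 (0.503 to 0.604), and not in Xist-marked ones, 1.06 (0.916 to 1.22).

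Cmss1, Lncpint and Adam19 were at nearly the same level in both kinds of barcode. The ratio of Y-marked to Xist-marked barcodes with LysoPS-OVA, free OVA and citrate buffer was 1.02, 1.03 and 0.999 for Cmss1, 1.05, 1.03 and 0.974 for Lncpint, 0.964, 0.956 and 1.05 for Adam19, 1.13, 0.913 and 1.16 for Def8 and 0.935, 0.747 and 0.765 for Agbl1. For Def8 the near-even ratio over all barcodes hid opposite values by class with LysoPS-OVA: 0.666 (0.545 to 0.818) in B and 2.22 (1.56 to 3.28) in T cells. Between LysoPS-OVA and citrate buffer the ratios over all classes were 0.601 and 0.589 for Cmss1, 1.71 and 1.58 for Lncpint and 0.492 and 0.505 for Def8 in Y-marked and Xist-marked barcodes. By class the Def8 ratio differed between both kinds, at 0.416 (0.371 to 0.467) in Y-marked and 0.678 (0.548 to 0.833) in Xist-marked B cells, and at 0.480 (0.419 to 0.550) in Y-marked and 0.264 (0.178 to 0.381) in Xist-marked T cells. How the animals' sexes were spread over the pools is not given in the labels, and the part of that spread in the library differences was not tested.

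**Figure D4:**
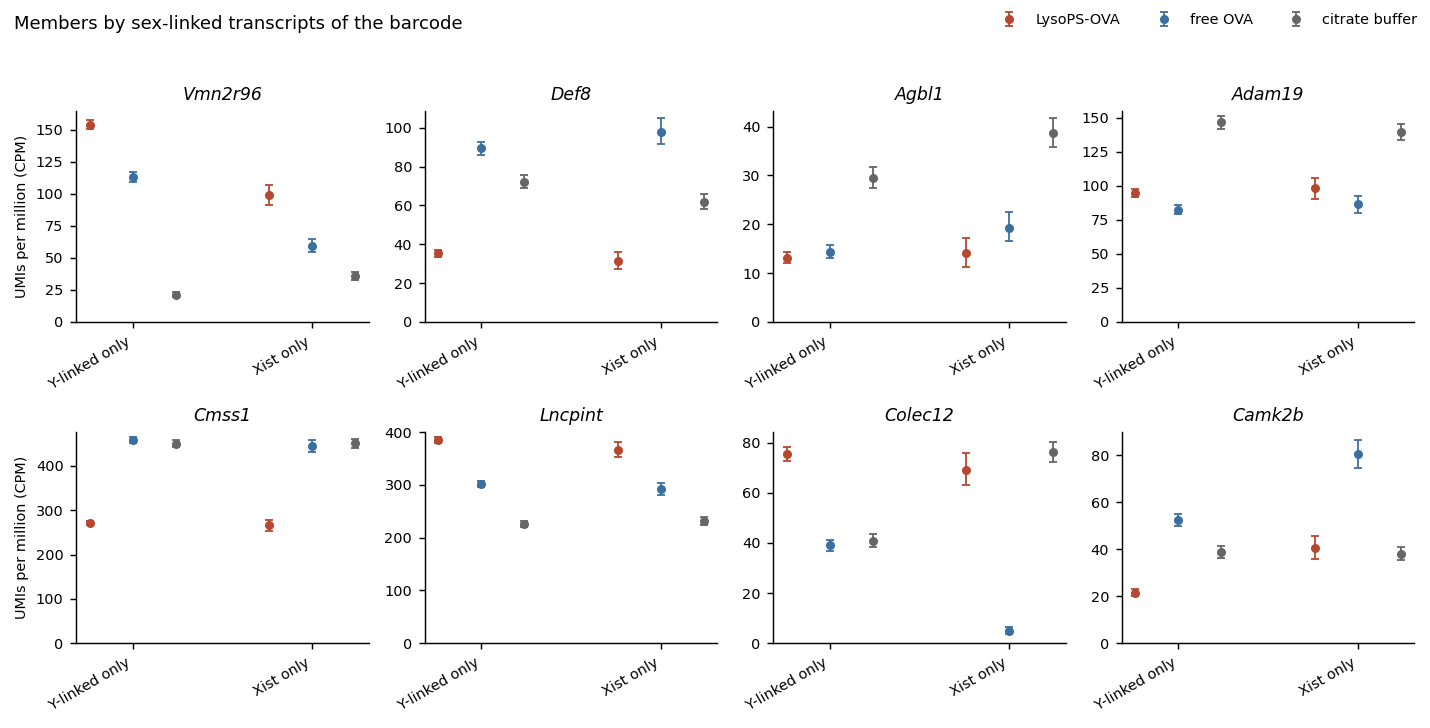
CPM of the 8 genes in barcodes with Y-linked transcripts and no Xist and in barcodes with Xist and no Y-linked transcripts, with LysoPS-OVA, free OVA and citrate buffer from left to right; bars are 95% Poisson intervals and each panel starts at 0. Colec12 with free OVA stands at 39.1 CPM in the Y-marked and 4.82 CPM in the Xist-marked group, whereas the 3 levels of Cmss1 and of Lncpint are nearly the same in both.

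The kind of barcode mattered for the level of some genes and little for others. Barcodes low in ribosomal transcripts held more of most genes than whole-cell-like barcodes (at least 0.5% Malat1 and 10% ribosomal transcripts). For Vmn2r96 they had 346, 163 and 47.8 CPM with LysoPS-OVA, free OVA and citrate buffer, where whole-cell-like barcodes had 132, 103 and 24.9 CPM. For Lncpint they had 752, 653 and 428 CPM against 369.7, 294 and 205 CPM. For Agbl1 they had 34.2, 38.8 and 63.0 CPM against 12.4, 13.5 and 26.9 CPM. For Adam19 they had 193, 153 and 270 CPM against 86.5, 80.0 and 122 CPM. Each of these genes was thus higher in such barcodes in all 3 libraries. Agbl1 and Adam19 were highest with citrate buffer in both kinds. That library also had the largest share of barcodes low in ribosomal transcripts, 22.1%. The part of that share in their differences between libraries was not tested. Barcodes low in Malat1 held little Lncpint, 80.5, 58.3 and 40.6 CPM, and little Colec12, 9.06, 4.06 and 10.6 CPM. They held about as much Cmss1 and Def8 as whole-cell-like ones, with ratios of 0.954, 1.27 and 0.926 for Cmss1 and 1.04, 0.944 and 0.865 for Def8 in the 3 libraries. Vmn2r96, Agbl1, Adam19 and Camk2b were also lower in them than in whole-cell-like barcodes in all 3 libraries. This kind overlaps with cell class. The median Malat1 share was 0.19%, 0.18% and 0.27% in myeloid cells and 1.92%, 1.64% and 1.62% in B cells. The part of cell class in these levels was not tested.

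**Figure D5:**
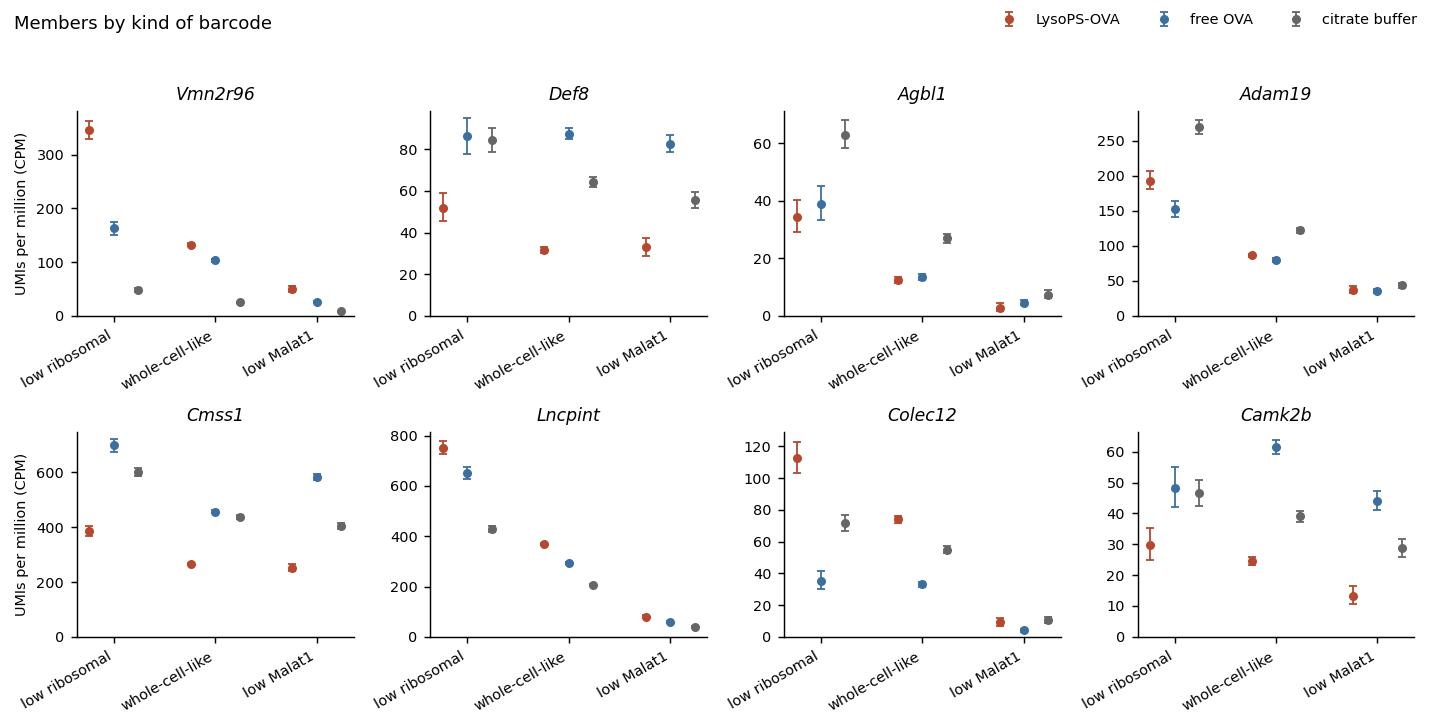
CPM of the 8 genes in barcodes low in ribosomal transcripts, whole-cell-like barcodes and barcodes low in Malat1, with LysoPS-OVA, free OVA and citrate buffer from left to right in each kind; bars are 95% Poisson intervals and each panel starts at 0. Lncpint and Colec12, like Vmn2r96, Agbl1, Adam19 and Camk2b, are lowest in the barcodes low in Malat1, and Cmss1 is lowest with LysoPS-OVA in all 3 kinds.

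Within each kind of barcode the order of the libraries was kept for Vmn2r96, Lncpint, Cmss1 and Def8 between LysoPS-OVA and citrate buffer. Whole-cell-like barcodes gave 5.30 (4.98 to 5.64) for Vmn2r96, 1.80 (1.76 to 1.84) for Lncpint, 0.606 (0.593 to 0.618) for Cmss1 and 0.493 (0.465 to 0.523) for Def8. Barcodes low in ribosomal transcripts gave 7.24 (6.54 to 8.02), 1.76 (1.68 to 1.84), 0.641 (0.608 to 0.676) and 0.617 (0.532 to 0.713). Those low in Malat1 gave 6.22 (4.98 to 7.81), 1.98 (1.76 to 2.23), 0.624 (0.591 to 0.659) and 0.593 (0.509 to 0.690) in the same order of genes. Of 9 transcripts that are often abundant in nuclear libraries, 2 were past 1.5-fold lower with LysoPS-OVA and 4 higher with free OVA than with citrate buffer. Of 15506 genes, 11.1% and 6.42% did so. Gm42418, which overlaps ribosomal RNA genes, was the largest of these at 16716, 64752 and 26723 CPM with LysoPS-OVA, free OVA and citrate buffer, and AY036118 and Lars2 were at 0.516 and 0.690 times citrate buffer with LysoPS-OVA. An alternative of scaling left Gm42418, AY036118 and Lars2 out of the totals together with other abundant genes. Their separate part in the values of the 8 genes was not tested.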

How the data were processed

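Single-cell 3′ libraries of pooled mesenteric lymph node cells, loaded at 10000 cells each per the labels' protocols, were processed with Cell Ranger 7.2.0 on the mm10 build, per the submitters' processing notes. The deposited values are raw UMI counts per gene and barcode. The annotation and the intron setting are not given in the sources used here.

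Barcodes under 300 genes or over 10% mitochondrial UMIs were dropped, and doublets were called with Scrublet (in scanpy 1.11.5, expected rate 0.8% per 1000 barcodes) and removed. The removals for few genes, mitochondrial UMIs and doublets came to 143, 3407 and 1298 barcodes with LysoPS-OVA, 1904, 3425 and 1382 with free OVA and 11, 2568 and 4477 with citrate buffer. A barcode entered a class where at least 2 of its markers had a UMI and no second lineage had 2. UMIs were summed per class and library and scaled to CPM, with exact Poisson intervals for levels and conditional binomial intervals for ratios (scipy 1.17.1). These cover counting error only, with UMIs taken as independent. With 1 library per group no test was made. Sums and calls were checked on simulated data. Ratios for calls used CPM + 1.

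Named beside the 8 genes are the 3 genes nearest to each over the 8 class ratios against citrate buffer, the 2 measured neighbours on each side, and the 3 members of each related list farthest from 1-fold between LysoPS-OVA and citrate buffer. A few other members of those lists (Vmn2r7, the genes related to Def8) were named after their values were seen. The 8 genes and the lists were chosen with earlier results of these data known. Alternatives covered the gate, doublets, mitochondrial limit, barcode kind, sex mark, thinning, scaling, summing, pseudocount, filter and fold. Leaving out the myeloid class, and the share of all genes under the alternatives of gate, barcode kind, sex mark, thinning and summing, were added after seeing the data.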

Additional observations from a re-analysis of the deposited data

Results flagged for a closer look

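Free OVA and citrate buffer differed in Cmss1 in opposite directions by class. The ratio of free OVA to citrate buffer was 1.04 (1.01 to 1.07) in B cells and 1.16 (1.09 to 1.23) in myeloid cells, both above 1, and 0.927 (0.882 to 0.974) in CD4 T cells, below 1. Colec12 differed in opposite directions by sex mark in T cells. LysoPS-OVA against citrate buffer gave a ratio of 1.96 (1.74 to 2.22) in Y-marked T cells, above 1, and 0.765 (0.634 to 0.920) in Xist-marked T cells, below 1. Each interval covers counting error in 1 library per group, and the differences between the classes and between the sex marks were not tested.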

How the results depend on the processing

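Of 1364 values that 120 ratios took under the alternatives, 946 stayed within the counting interval of the reported ratio, 412 moved beyond it and 6 changed direction. A change of direction was counted on the ratio itself, without an interval, and only for ratios reported past 1.5-fold. Of the 528 alternative values of ratios reported within 1.5-fold, 70 lay on the other side of 1. The 6 were Camk2b between LysoPS-OVA and citrate buffer in Xist-marked barcodes (1.06 over all kept barcodes and 1.21 in B cells) and 4 ratios of free OVA to citrate buffer: Vmn2r96 in Xist-marked CD4 T cells (0.613), Def8 and Colec12 in CD8 T cells low in ribosomal transcripts (0.922 and 1.21) and Camk2b in Y-marked CD8 T cells (0.914). Among the members of the set, the 4 past 1.5-fold alike in all classes between LysoPS-OVA and citrate buffer became 2 in whole-cell-like barcodes (Def8 and Lncpint, of 4 measured), 1 in barcodes low in ribosomal transcripts (Vmn2r96, of 4), 2 in Y-marked barcodes (Vmn2r96 and Def8), 1 in Xist-marked barcodes (Cmss1, of 3) and 1 at 2-fold (Vmn2r96). Between free OVA and citrate buffer the 1 member became 2 with a gate of 3 markers or with mean CPM per barcode, both adding Colec12, and 0 in whole-cell-like barcodes, barcodes low in ribosomal transcripts, Y-marked barcodes, Xist-marked barcodes and at 50 CPM. Between LysoPS-OVA and free OVA the 4 members became 2 in whole-cell-like, low-ribosomal, Y-marked and thinned barcodes, at 2-fold and at 50 CPM, and 0 in Xist-marked barcodes. Of all genes, the share past the threshold between LysoPS-OVA and citrate buffer was 0.234% at 2-fold, 0.375% with a pseudocount of 10 CPM, 1.17% with no filter, 1.19% without myeloid cells, 1.26% in barcodes low in ribosomal transcripts and 0.423% in Y-marked barcodes. Between free OVA and citrate buffer that share of all genes was 0.169% at 2-fold, 0.353% with the pseudocount of 10 CPM, 1.14% with no filter, 0.424% in whole-cell-like barcodes and 1.42% in those low in ribosomal transcripts. Between LysoPS-OVA and free OVA it was 0.0901% of all genes at 2-fold, 0.126% with the pseudocount of 10 CPM, 0.335% at 50 CPM, 0.310% in thinned barcodes (9 of 2902 genes), 1.04% in barcodes low in ribosomal transcripts and 0.601% in Xist-marked barcodes. Under the other alternatives of gate, barcodes, thinning and summing the share of all genes was 0.445% to 0.673%, 0.563% to 0.729% and 0.200% to 0.261% in these 3 comparisons. A part of the lower counts follows from fewer members reaching 30 UMIs in smaller sets of barcodes; beyond that the cause was not tested. No paired analysis was possible because each group is 1 library. Depth limits Agbl1 and Camk2b most, which were under 10 CPM in several classes, and the smallest myeloid ratios.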
